A study of Mus musculus with 24 samples.

Results

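The genes described here encode the nuclear-encoded subunits of the respiratory chain and of ATP synthase, and their membership was set by a rule on gene names. Protein-coding genes were taken whose mouse symbol starts with Ndufa, Ndufb, Ndufc, Ndufs or Ndufv and a number, or with Uqcr, Cox4 to Cox8 or Atp5, together with Ndufab1, Cyc1 and the Sdh genes. This gave 81 of the 17301 genes in the deposited table, of 87 genes that the GENCODE M21 annotation of GRCm38 holds under these names. They fell into complex I with 36 genes, complex II with 4, complex III with 9, complex IV with 15 and complex V with 17. Ndufa4 and Ndufa4l2 were counted with complex IV, to which the Ndufa4 protein is known to belong. Cox6a2, Cox7a1, Cox7b2, Cox8b, Cox8c and a second gene named Atp5o had no row in the table.

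RNA had been sequenced from 4 myeloid populations, sorted either from the colon lamina propria (LP) of mice of strain C57BL/6J or from tumours in the colon of ApcMin/+ mice on that background, which carry 1 mutant Apc allele and develop intestinal adenomas. The populations were F4/80hi MHCIIhi and F4/80hi MHCIIlow macrophages, Ly6Chi MHCII- monocytes and Ly6Ghi F4/80- CD11b+ neutrophils, with 3 libraries in each of the 8 groups and tissue of 13 to 15 mice pooled for sorting, in 3 independent experiments. The tumour mice had drunk dextran sodium sulphate for 1 week from an age of 6 to 8 weeks and were killed 4 weeks later, at 3 to 4 months. The methods describe the same treatment, at another dose, for the C57BL/6J mice, whereas the labels call the LP healthy. Tissue, genotype and the isolation of the cells, with an EDTA step for LP only and a different Percoll step, moved together in these groups, so that their effects cannot be told apart. In sorted bulk RNA, fewer cells of a kind and less RNA per cell cannot be told apart either.

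The respiratory chain sits in the inner mitochondrial membrane. Complexes I and II pass electrons from NADH and succinate to ubiquinone, complex III passes them on to cytochrome c and complex IV to oxygen, and ATP synthase, complex V, uses the proton gradient that complexes I, III and IV build. Most subunits are encoded in the nucleus and imported, while a core of complexes I, III, IV and V is encoded in mitochondrial DNA, and complex II is encoded by nuclear genes only. Neutrophils are known for few mitochondria and for living mainly from glycolysis, whereas tissue macrophages keep a larger mitochondrial pool.

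Values are log2 RPKM, that is, reads scaled by gene length and library size, with a small prior count, as the authors deposited them. Values of 3 libraries are given in the order of their donor numbers. The libraries held 12.8 M to 41.7 M reads on genes (median 26.4 M, where M stands for 1000000), and the members took 0.0936% to 0.622% of them. Over the 3 libraries of a group together, the median member held 157 reads in tumour neutrophils, 272 in LP neutrophils and 662 to 1043 in the other groups. The library sizes behind the deposited values were 0.466 to 0.483 of the reads in tumour neutrophils and 0.63 to 0.682 in LP neutrophils, against up to 1.51 elsewhere, so levels of neutrophils rest on this scaling. The sorted populations carried their markers. The summed RPKM of 6 macrophage markers was 3305 to 4268 in LP and 4510 to 6181 in tumour MHCIIhi macrophages, and 3073 to 3588 and 3763 to 5234 in the MHCIIlow subset. Mertk, Cx3cr1 and Csf1r were called higher in the tumour group of both subsets. The sum was 453 to 545 in LP and 661 to 722 in tumour monocytes, where Mertk was called higher. In neutrophils it was 184 to 212 from LP against 214 to 266 from tumours, where Mertk, Cx3cr1 and Adgre1 were called higher than in LP. The 6 neutrophil markers reached 11427 to 29004 in neutrophils and at most 148 elsewhere, with Ly6g and Retnlg called higher in tumour than in LP MHCIIlow macrophages (sums of 32.8 to 43.7 against 23.3 to 31.9) and S100a9 in the MHCIIhi subset. The 7 epithelial markers summed to 151 to 307 in tumour neutrophils against 12.7 to 62.2 in LP neutrophils, and to 104 to 316 in tumour against 19.4 to 212 in LP monocytes, with Krt8 and Krt18 called higher in both. Krt18 was called higher in tumour MHCIIhi and Cdh1 in tumour MHCIIlow macrophages, and 6 fibroblast markers summed to 6.83 to 62.0 in LP groups against 0.0128 to 1.57 in tumour groups. The 5 B and plasma cell markers summed to 356 to 1293 in LP neutrophils against 0.654 to 19.9 in tumour neutrophils, and to 156 to 575 in LP monocytes against 0.0373 to 3.06 in tumour monocytes, with Jchain and Mzb1 called lower in both tumour groups and Cd79a in monocytes. The 5 monocyte markers summed to 819 to 1225 in LP and 2756 to 3471 in tumour monocytes, and 0 of the 5 were called between these groups. In MHCIIlow macrophages they summed to 126 to 453 from LP and 13.1 to 24.3 from tumours. In the MHCIIhi subset these sums were 57.9 to 65.1 and 12.9 to 18.1. In neutrophils they summed to 191 to 362 from LP against 369 to 657 from tumours, with F13a1 called higher in the latter. The 4 dendritic cell markers summed to 75.0 to 146 in LP and 1.99 to 17.0 in tumour neutrophils, and to 44.3 to 64.8 and 5.04 to 14 in MHCIIhi macrophages. Eosinophil markers, 3 with a row, summed to 21.7 to 42.2 in LP and 20.6 to 30.8 in tumour neutrophils, and to at most 5.97 elsewhere. The part of these other cells in the differences below was not tested.

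Promoters of the isoform families in which a member was called between tumour and LP are shown first, so that related genes can be compared, each from 250 bases before to 50 bases after the start in RefSeq on GRCm38.p6. Of the 81 members, 64 had an entry, and 17 had none, Cox4i1 and Cox4i2 among them. Letters in capitals match, on either strand, CCGGAAG (bound by GABP and other ETS factors), GCGCANGCG (NRF1), AAGATGGC (YY1) or ACGTG (hypoxia-inducible factors), where N is any base. The first family holds Cox7a2, a small subunit of complex IV, and Cox7a2l, a relative of the same family. They lie at chr9:79759804-79760103 and chr17:83514284-83514583, both on the minus strand, and neither holds any of these letters.
Cox7a2: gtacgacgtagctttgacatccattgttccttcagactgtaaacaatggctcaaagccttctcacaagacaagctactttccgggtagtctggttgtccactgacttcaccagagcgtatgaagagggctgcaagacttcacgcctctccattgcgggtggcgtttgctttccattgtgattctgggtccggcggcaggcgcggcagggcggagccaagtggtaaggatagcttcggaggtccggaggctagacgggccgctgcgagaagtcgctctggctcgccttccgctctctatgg
Cox7a2l: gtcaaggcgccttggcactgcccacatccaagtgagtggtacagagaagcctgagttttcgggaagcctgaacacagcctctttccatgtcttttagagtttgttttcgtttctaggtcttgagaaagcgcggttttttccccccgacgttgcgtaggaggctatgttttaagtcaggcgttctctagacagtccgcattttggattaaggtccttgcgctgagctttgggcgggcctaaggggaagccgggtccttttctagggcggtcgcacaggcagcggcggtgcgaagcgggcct
The complex IV subunit gene Cox8a, at chr19:7217567-7217866 on the minus strand, is shown because Cox8a rose in tumour MHCIIhi macrophages, and CTTCCGG, the reverse complement of CCGGAAG, occurs in it 2 times.
Cox8a: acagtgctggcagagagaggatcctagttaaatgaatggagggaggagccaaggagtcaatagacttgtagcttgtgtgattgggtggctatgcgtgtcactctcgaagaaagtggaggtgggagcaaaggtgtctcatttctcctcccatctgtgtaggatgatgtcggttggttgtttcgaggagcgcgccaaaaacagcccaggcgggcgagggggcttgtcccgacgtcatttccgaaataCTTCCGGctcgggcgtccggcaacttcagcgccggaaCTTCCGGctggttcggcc
The c-ring of ATP synthase, the rotor that protons turn, is made of 1 mature protein encoded by 3 genes, Atp5g1, Atp5g2 and Atp5g3. Their promoters, all on the minus strand, lie at chr11:96075582-96075881, chr15:102670998-102671297 and chr2:73911277-73911576. NRF1 letters occur in Atp5g2 and Atp5g3, and ACGTG on 1 or both strands in all 3.
Atp5g1: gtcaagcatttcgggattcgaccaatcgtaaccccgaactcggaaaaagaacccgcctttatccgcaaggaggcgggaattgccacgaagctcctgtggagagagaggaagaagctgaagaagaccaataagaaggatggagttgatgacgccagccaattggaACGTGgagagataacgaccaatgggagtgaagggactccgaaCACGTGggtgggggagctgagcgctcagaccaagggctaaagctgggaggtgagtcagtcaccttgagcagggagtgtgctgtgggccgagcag
Atp5g2: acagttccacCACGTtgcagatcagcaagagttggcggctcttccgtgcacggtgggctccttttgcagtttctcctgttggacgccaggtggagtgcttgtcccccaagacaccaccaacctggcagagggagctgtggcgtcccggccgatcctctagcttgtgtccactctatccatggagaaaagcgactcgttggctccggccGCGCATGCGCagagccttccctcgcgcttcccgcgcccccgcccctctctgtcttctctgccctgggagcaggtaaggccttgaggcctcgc
Atp5g3: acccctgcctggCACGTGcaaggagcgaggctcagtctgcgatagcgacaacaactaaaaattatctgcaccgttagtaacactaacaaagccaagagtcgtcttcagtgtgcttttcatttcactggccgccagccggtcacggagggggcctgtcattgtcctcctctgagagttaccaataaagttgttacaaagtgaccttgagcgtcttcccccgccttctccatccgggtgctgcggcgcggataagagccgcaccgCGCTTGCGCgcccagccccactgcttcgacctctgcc
Sdhd, which encodes a membrane anchor of succinate dehydrogenase, was added after its values were seen because its change went in different directions in different cells. Its promoter at chr9:50603800-50604099, minus strand, holds NRF1 and ETS letters.
Sdhd: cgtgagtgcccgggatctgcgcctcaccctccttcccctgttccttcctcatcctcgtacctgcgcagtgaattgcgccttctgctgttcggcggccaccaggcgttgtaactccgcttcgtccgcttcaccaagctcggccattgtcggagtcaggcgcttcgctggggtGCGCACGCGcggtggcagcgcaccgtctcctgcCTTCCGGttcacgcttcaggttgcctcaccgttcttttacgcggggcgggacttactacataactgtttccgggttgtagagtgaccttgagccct
Among 69 promoters of members, the NRF1 letters were found in 21 (30.4%), against 6.25% of all 32851 promoters in the table. The ETS letters were in 16 (23.2%, against 8.86%), the YY1 letters in 9 (13%, against 2.75%) and ACGTG in 15 (21.7%, against 19.6%). A match of letters is no binding site by itself.

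In all 8 groups the highest complex by summed RPKM was complex V, and within it Atp5b, the catalytic beta subunit, was the highest single member in 7 groups. LP neutrophils were the exception, with Sdhd at a mean of 7.06 log2 RPKM. The summed RPKM of complex V was 416 ± 28.2 (SD, n = 3) in LP MHCIIhi macrophages, 432 ± 39.7 in LP MHCIIlow macrophages, 511 ± 7.24 in LP monocytes and 264 ± 21.9 in LP neutrophils. In tumours the same sums were 504 ± 19.0, 601 ± 46.0, 605 ± 46.9 and 309 ± 34.7. Neutrophils thus lay below all other groups for complex V in both tissues, with no overlap of libraries. Complex I summed to 236 ± 29.2 in LP MHCIIhi macrophages against 354 ± 57.3 in the tumour, and to 297 ± 10.3 against 434 ± 15 in MHCIIlow macrophages. Monocytes had 265 ± 29.7 against 345 ± 29.4 and neutrophils 163 ± 15.5 against 184 ± 22.3. The tumour sum of complex I lay above the LP sum by more than the spread of either group in 3 populations, and in neutrophils the difference was smaller than the spread of the tumour group.

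Complex II, the entry point from the citric acid cycle, had another order. It summed to 204 ± 24.9 in LP neutrophils and 192 ± 20.9 in tumour neutrophils, against 143 ± 12.4, 149 ± 4.56 and 144 ± 7.93 in LP MHCIIhi macrophages, LP MHCIIlow macrophages and LP monocytes. On the deposited scale LP neutrophils thus lay above the other LP groups, but with quantile normalization they were the lowest of them, at a mean of 137 against 145 to 188. Complex III ran from 129 ± 12.1 in LP neutrophils to 356 ± 18.9 in tumour monocytes. Complex IV ran from 134 ± 12.8 in LP MHCIIhi macrophages to 259 ± 55.0 in tumour monocytes, with LP neutrophils at 178 ± 18.2, close to LP MHCIIlow macrophages at 181 ± 10.6 and LP monocytes at 182 ± 15.6. Its spread was widest in tumour MHCIIhi macrophages at 239 ± 84.3. With quantile normalization the highest group was tumour MHCIIlow macrophages for both complexes, at 385 against 361 in tumour monocytes for complex III and 309 against 259 for complex IV, so the order of groups depends on the scaling. Of the 81 members, 41 had their highest group mean in tumour MHCIIlow macrophages and 19 in tumour monocytes, while 29 were lowest in LP neutrophils, 25 in tumour neutrophils and 22 in LP MHCIIhi macrophages. Neighbouring groups in this order often overlapped, so the order of single members is a description.

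**Figure D1:**
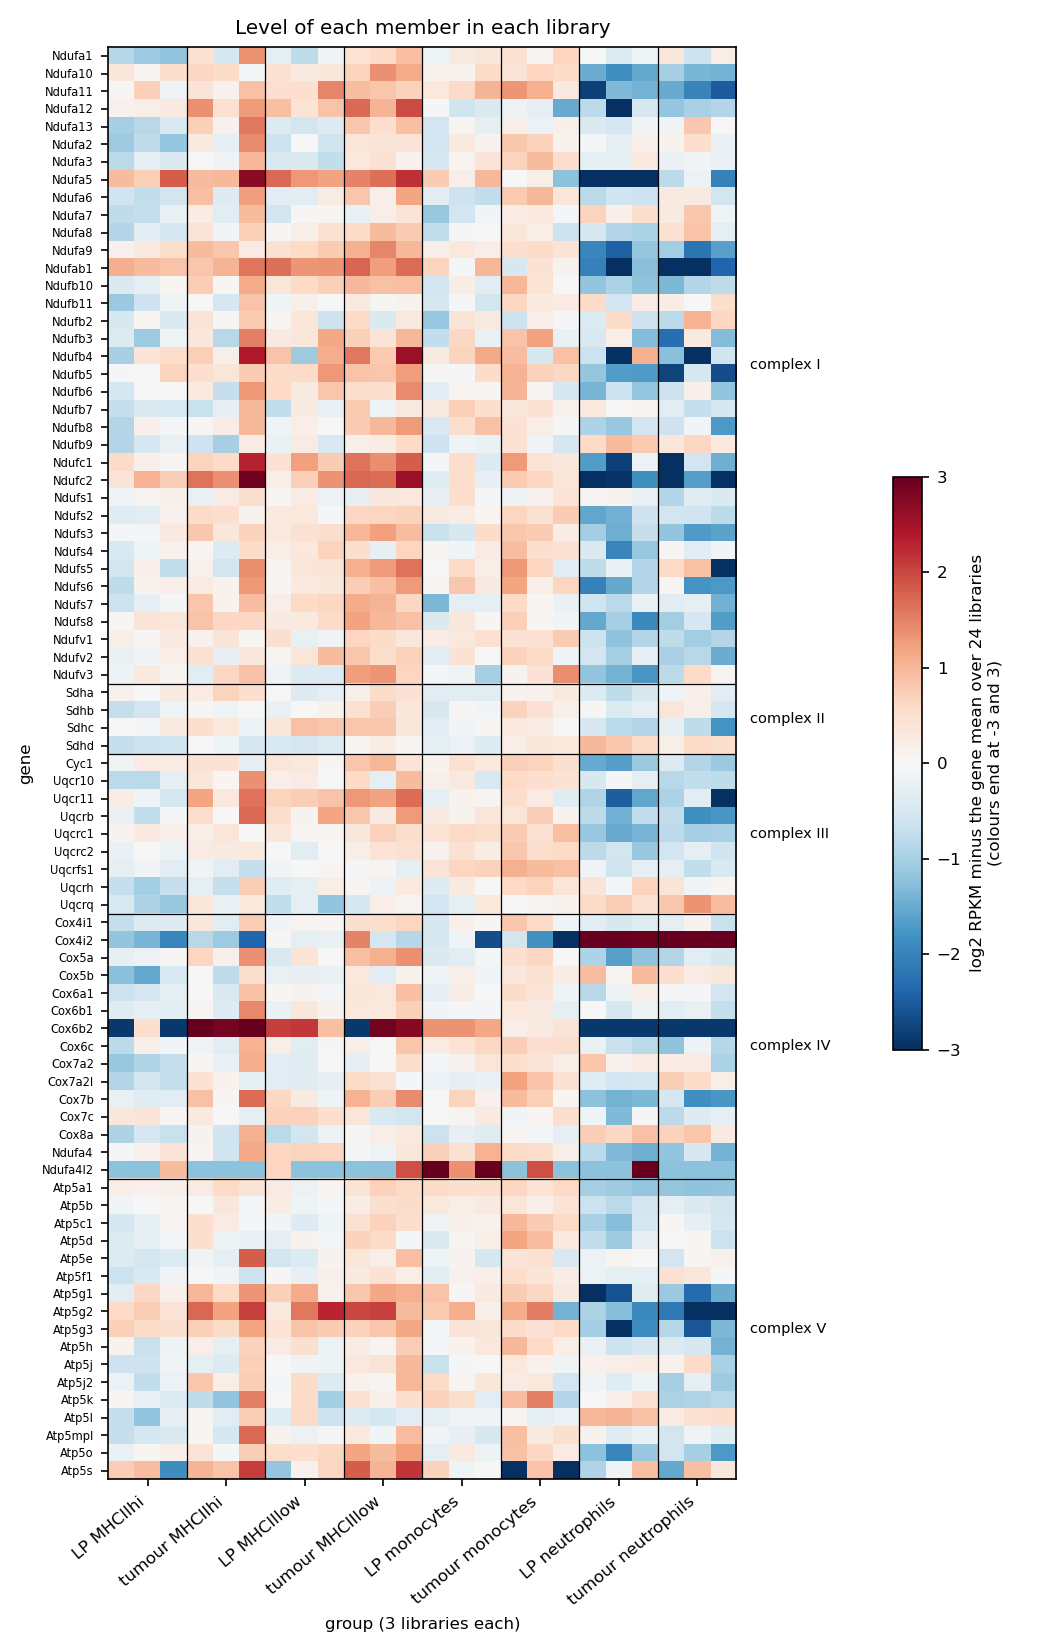
Log2 RPKM of each of the 81 members minus the member's mean over all 24 libraries (colour, ending at -3 and 3), with members in rows by complex and libraries in columns by group. Both neutrophil groups are mostly below the mean and tumour MHCIIlow macrophages mostly above it, with Sdhd, Cox4i2 and Cox8a going the other way in neutrophils.

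In F4/80hi MHCIIhi macrophages, the members that rose in tumours against LP were mostly subunits of complexes I and IV. By limma on the 12878 genes whose mean RPKM reached 1 in some group, 19 of the 79 members tested rose (24.1%, against 8.01% of all genes tested) and 0 fell (against 11.5%). At an unadjusted p below 0.05, 34 members were higher and 0 lower, and limma's voom on reads called 21 higher and 0 lower. Of all 12878 genes voom called 1832 higher and 1965 lower. The count of higher members was 12 with each library centred on its median and 3 with only the 6 libraries of these groups in the fit. The estimate was above 0 for 76 of 79 members, with Uqcrc1, Uqcrfs1 and Cox7c below, and the median change was 0.62 on the log2 scale against 0.00 for all genes. Of the 81 members, 62 reached this level in all 8 groups, and 2 in none. By complex, 8 of 36 tested members of complex I rose, 1 of 4 of complex II, 2 of 9 of complex III, 7 of 13 of complex IV and 1 of 17 of complex V.

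Ndufa13, an accessory subunit of the membrane arm of complex I also known as Grim-19, had the largest rise. It measured 0.67, 0.83 and 1.21 log2 RPKM in LP MHCIIhi macrophages and 2.38, 1.81 and 3.25 in tumour MHCIIhi macrophages, without overlap. The change was 1.58 ± 0.32 (SE, adjusted p = 0.00132), and it passed without any one of the 6 libraries. Of its 51-base stretches, 28.3% also occur in other genes and 30.0% of its exon bases overlap another gene, so part of these reads may be shared. Ndufa2 and Ndufa1, further accessory subunits of complex I, rose by 1.49 ± 0.33 (adjusted p = 0.00255) and 1.47 ± 0.33 (adjusted p = 0.00352). In complex III, Uqcr10, a small subunit beside the Rieske protein, measured 1.49, 1.49 and 2.00 in LP and 2.66, 2.36 and 3.66 in tumours. It rose by 1.23 ± 0.31 (adjusted p = 0.00735). In complex IV, Cox7a2 measured 2.10, 2.32 and 2.55 in LP and 3.26, 3.03 and 4.33 in tumours, again without overlap, and rose by 1.21 ± 0.32 (adjusted p = 0.0112). Cox4i1, the common isoform of the subunit through which ATP regulates complex IV, rose by 0.74 ± 0.25 (adjusted p = 0.0411), without overlap. Cox8a rose by 0.90 ± 0.28 (adjusted p = 0.0257), with libraries that overlapped. In complex V, Atp5l, subunit g of the membrane part, rose by 0.87 ± 0.30 (adjusted p = 0.0473), with overlapping libraries and in only 4 of 10 other settings.

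The count in MHCIIhi macrophages leaned on single libraries. Without tumour library VII it was 6 members, without tumour library I it was 8, and without LP library III, IV or V it was 7, 8 or 12, in place of 19, while without tumour library V it was 27. Tumour library VII stood above the others of its group, with a median member level of 3.45 against 2.83 and 2.36 and a complex IV sum of 328 RPKM against 227 and 161. Members are short genes, with a median counted length of 1334 bases against 3653 for all protein-coding genes tested, and short genes as a class were higher in tumour MHCIIhi macrophages. Among 150 other protein-coding genes of up to 700 bases the median change was 0.63 and 19.3% rose, while 15 members of this length had a median of 0.87 and 7 rose. Above 2500 bases, 7777 other genes had a median of -0.04 and 8.76% rose, and 19 members had a median of 0.26 and 0 rose. In MHCIIlow macrophages the difference by length was smaller, with a median of 0.28 for other genes up to 700 bases against 0.07 above 2500 bases, and 0.51 against 0.39 for members. The part of length in the members' change was not tested.

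**Figure D2:**
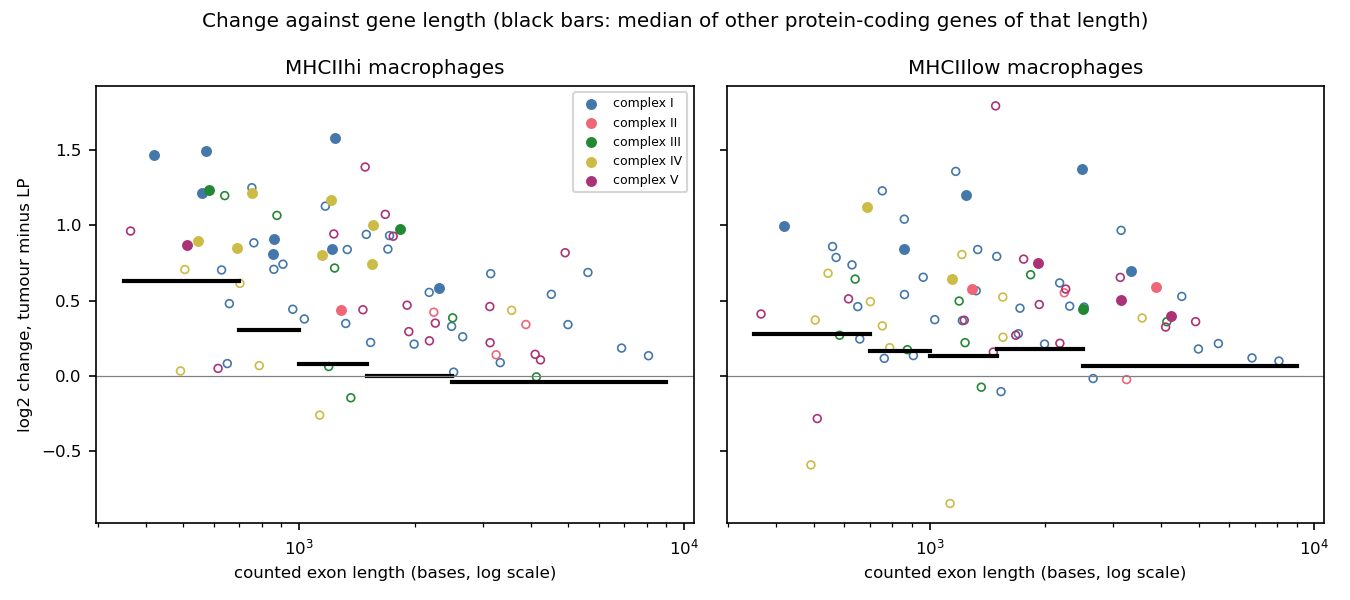
Tumour minus LP change (log2) of each member (points) against the counted length of the gene in bases (log axis) in MHCIIhi and MHCIIlow macrophages, with black bars for the median of other protein-coding genes in each length class. In MHCIIhi macrophages the black bars fall from 0.63 in the shortest class to -0.04 in the longest, and the members lie mostly above them.

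In F4/80hi MHCIIlow macrophages 13 of 79 members rose in tumours (16.5%, against 11.5% of all genes tested) and 0 fell (against 11.8%). At an unadjusted p below 0.05, 28 were higher and 1, Cox7c, was lower. Voom called 19 higher and 1 lower, against 2109 and 2010 of all 12878 genes, and with arrayWeights or quantile normalization 20 were higher. The estimate was above 0 for 72 members, with a median of 0.46 against 0.06 for all genes. Each complex held at least 1 called member. Without tumour library V the count was 7. The lists of MHCIIhi and MHCIIlow macrophages shared 6 members (31.6% of the first and 46.2% of the second), namely Cox5a, Cox7a2l, Ndufa1, Ndufa13, Ndufa3 and Sdhd. The overlap of such lists over all genes tested was not counted, here or in the comparisons below.

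The largest rise in MHCIIlow macrophages was that of Ndufv3, an accessory subunit of the NADH-oxidizing arm of complex I, with 1.73, 1.41 and 1.41 in LP and 3.07, 3.14 and 2.46 in tumours. It rose by 1.37 ± 0.39 (adjusted p = 0.0139), without overlap. Cox5a, a matrix-side subunit of complex IV, measured 2.93, 3.78 and 3.37 in LP and 4.27, 4.43 and 4.75 in tumours, and rose by 1.12 ± 0.27 (adjusted p = 0.0049). Ndufa13 rose by 1.20 ± 0.32 (adjusted p = 0.00877). For both genes all tumour libraries lay above all LP libraries. The F1 part of ATP synthase, which makes ATP, had its alpha, beta and gamma subunits among the called members. Atp5a1, the alpha subunit, measured 7.08, 6.65 and 6.88 in LP and 7.21, 7.51 and 7.41 in tumours, and rose by 0.51 ± 0.11 (adjusted p = 0.00261). Atp5b rose by 0.40 ± 0.13 (adjusted p = 0.0296) and Atp5c1, the gamma subunit and shaft of the motor, by 0.75 ± 0.20 (adjusted p = 0.00843). The call of Atp5b was lost with libraries centred on their median and held in 2 of 6 cases without single libraries. In complex III the core protein gene Uqcrc2 rose by 0.45 ± 0.15 (adjusted p = 0.0294), a call also lost with libraries centred on their median. Cox7c, a small subunit of complex IV, measured 2.79, 2.79 and 2.61 in LP and 2.45, 1.65 and 1.54 in tumours. Its change of -0.85 ± 0.30 missed the threshold (adjusted p = 0.0502), although the libraries did not overlap and 8 of 10 other settings called it lower, the fit with donors as a random block among them.

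In monocytes 5 of 79 members rose (6.33%, against 4.86% of all genes tested), a share near the background, and 0 fell (against 4.43%). At an unadjusted p below 0.05, 23 were higher and 1 lower, and voom called 6 higher and 0 lower, against 965 and 799 of all 12878 genes. With each library centred on its median 8 were higher and with summed reads 3. The median change was 0.30 against 0.00, with 67 members above 0. Up to 700 bases of gene length it was 0.26 for members and 0.25 for other protein-coding genes, and at 700 to 1000 bases 0.28 for both. At 1000 to 1500 bases it was 0.30 for members and 0.16 for other genes, at 1500 to 2500 bases 0.54 and 0.01, and above 2500 bases 0.21 and -0.04. The called members were Ndufa6, Sdha, Sdhd, Cox7a2l and Atp5c1. Ndufa6, an accessory subunit of complex I, measured 2.14, 1.82 and 1.72 in LP and 3.24, 3.46 and 2.82 in tumours, without overlap, and rose by 1.27 ± 0.35 (adjusted p = 0.0229). Atp5c1 rose by 0.71 ± 0.20 (adjusted p = 0.0266). Without LP library III, IV or V the count was 3, and without tumour library I or II it was 2.

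In neutrophils the tumour and LP groups differed in both directions. Of 79 members, 10 rose (12.7%, against 13.1% of all genes tested) and 2 fell (2.53%, against 19.0%), so that the share of higher members was near the background. The estimate was above 0 for 40 members, with a median of 0.02 against -0.12 for all genes. The count of higher members depended on the scaling of the libraries. It was 17 with each library centred on its median and 2 with library sizes as summed reads, where 16 members were called lower. Voom called 3 higher and 0 lower, against 1374 and 1394 of all 12878 genes. With arrayWeights 4 were higher, and in the fit of only the libraries compared 2. Without LP library IV the count of higher members was 5, and without tumour library I or II it was 6. Without LP library III or tumour library I, 1 member fell in place of 2.

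Ndufv3 measured 0.63, 0.40 and 0.07 in LP neutrophils and 1.05, 2.40 and 1.92 in tumour neutrophils, and rose by 1.42 ± 0.39 (adjusted p = 0.00882). Ndufa8, an intermembrane-space subunit of complex I, measured 2.92, 2.51 and 2.44 in LP and 3.84, 4.24 and 3.09 in tumours, and rose by 1.10 ± 0.30 (adjusted p = 0.0082). Neither gene overlapped between the tissues. Cyc1, the cytochrome c1 of complex III, measured 4.14, 3.99 and 4.53 in LP and 5.25, 4.76 and 4.53 in tumours. It rose by 0.63 ± 0.21 (adjusted p = 0.0289), with the highest LP and the lowest tumour library nearly equal. Uqcrc1, a core protein of complex III, rose by 0.44 ± 0.14 (adjusted p = 0.0202), from 4.44, 4.07 and 4.19 to 4.81, 4.58 and 4.63. With library sizes as summed reads the change of Uqcrc1 was -0.03 and that of Sdha -0.01. Atp5c1 rose by 0.66 ± 0.20 (adjusted p = 0.0141), with overlapping libraries. The largest fitted changes belonged to genes with few reads. Ndufa5, a subunit of the matrix arm of complex I, had 1, 0 and 0 reads in LP and 4, 4 and 1 in tumour neutrophils, a ratio of 18.7 with an exact 95% counting interval of 2.59 to 820. Atp5g2, which shares 38.2% of its 51-base stretches with other genes, had 9, 4 and 4 reads in LP and 2, 0 and 0 in tumours. LP was thus 4.09 times the tumour, with an interval of 0.971 to 36.5. These intervals cover counting error only.

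**Figure D3:**
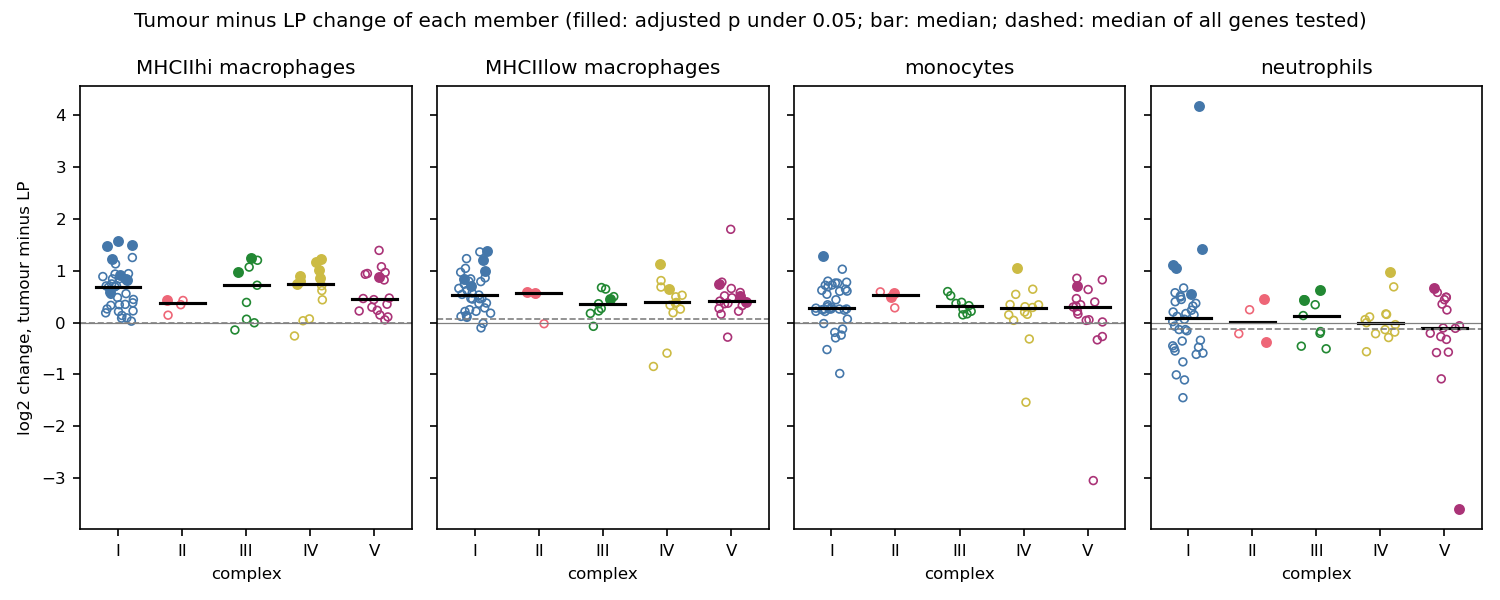
Tumour minus LP change (log2) of the 79 members tested in each of the 4 populations, 1 panel each, by complex. Filled points passed an adjusted p of 0.05, bars are medians of a complex and the dashed line is the median of all genes tested. Members lie mostly above the dashed line in both macrophage groups and in monocytes, where medians over members are 0.62, 0.46 and 0.30, and around 0 in neutrophils.

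Cox7a2l was the only member that rose in tumours in all 4 populations, Sdha, Sdhd and Atp5c1 rose in 3, 8 members in 2 and 18 in 1, while 49 rose in none. The same tally over all genes tested was not made, so these numbers are a description. Cox7a2l (chr17:83501918-83517330, minus strand, GRCm38) measured 4.70, 5.03 and 4.87 in LP and 6.02, 5.69 and 5.30 in tumour MHCIIhi macrophages. In MHCIIlow macrophages it measured 5.25, 5.23 and 5.35 in LP and 6.16, 6.04 and 5.56 in tumours. In monocytes the values were 5.42, 5.30 and 5.40 against 6.79, 6.46 and 6.02, and in neutrophils 5.23, 5.03 and 5.07 against 6.33, 6.14 and 5.77. All tumour libraries lay above all LP libraries of the same population. The change was 0.80 ± 0.20 in MHCIIhi macrophages (adjusted p = 0.0066), 0.64 ± 0.20 in MHCIIlow macrophages (adjusted p = 0.023), 1.05 ± 0.20 in monocytes (adjusted p = 0.00192) and 0.97 ± 0.20 in neutrophils (adjusted p = 0.00091). Without any one library the call held in MHCIIhi macrophages, monocytes and neutrophils, but in MHCIIlow macrophages it held in only 2 of 6 cases. Of the 51-base stretches of Cox7a2l, 13.7% also occur in other genes.

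Its relative Cox7a2 (chr9:79755361-79759878, minus strand) did not pass in the other 3 populations. It measured 2.91, 2.86 and 3.22 in LP and 2.98, 3.24 and 3.77 in tumour MHCIIlow macrophages, a change of 0.33 (adjusted p = 0.52). In monocytes it measured 3.19, 3.35 and 3.61 against 3.73, 3.62 and 3.40, a change of 0.20 (adjusted p = 0.792). In neutrophils it measured 4.06, 3.37 and 3.48 against 3.48, 3.47 and 2.28, a change of -0.56 (adjusted p = 0.202). The distance from Cox7a2 to Cox7a2l within a library was 1.47 ± 0.26 log2 (SD, n = 3) in LP neutrophils and 3.01 ± 0.43 in tumour neutrophils, without overlap. In monocytes it was 1.99 ± 0.22 in LP and 2.84 ± 0.22 in tumours, again without overlap. In macrophages the tissues overlapped, with 2.54 ± 0.20 in LP and 2.13 ± 1.00 in tumours in the MHCIIhi subset and 2.28 ± 0.13 and 2.59 ± 0.72 in the MHCIIlow subset. The difference between the 2 genes' changes was not tested.

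Complex II consists of Sdha, the flavoprotein that oxidizes succinate, Sdhb, which holds the iron-sulphur clusters, and the membrane anchors Sdhc and Sdhd. Sdha rose in tumour MHCIIlow macrophages by 0.59 ± 0.15 (adjusted p = 0.00498), in monocytes by 0.50 ± 0.15 (adjusted p = 0.0367) and in neutrophils by 0.46 ± 0.15 (adjusted p = 0.0212). In MHCIIhi macrophages the change was 0.34 ± 0.15 (adjusted p = 0.111). Its libraries measured 5.82, 5.43 and 5.55 in LP and 5.97, 6.36 and 6.25 in tumour MHCIIlow macrophages, and 5.49, 5.5 and 5.5 against 5.92, 5.94 and 6.11 in monocytes, without overlap in either. The call in monocytes was lost whichever of the 6 libraries was left out. Sdhb changed by 0.42, 0.55, 0.59 and 0.25 in MHCIIhi macrophages, MHCIIlow macrophages, monocytes and neutrophils (adjusted p = 0.183, 0.0664, 0.0906 and 0.406). Sdhc changed by 0.14, -0.02, 0.28 and -0.22 (adjusted p = 0.798, 0.982, 0.633 and 0.599), and neither gene passed in any population.

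Sdhd (chr9:50596357-50603812, minus strand), a gene with no stretch shared with other genes, went up in 3 populations and down in the fourth. It measured 5.58, 5.62 and 5.68 in LP and 6.30, 6.14 and 5.77 in tumour MHCIIhi macrophages, and 5.83, 5.77 and 5.87 against 6.33, 6.50 and 6.37 in MHCIIlow macrophages. In monocytes the values were 6.0, 6.10 and 5.89 against 6.49, 6.62 and 6.59, and in neutrophils 7.26, 7.08 and 6.85 against 6.47, 6.85 and 6.75. Tumour libraries lay above LP libraries in macrophages and monocytes, and in neutrophils the groups met at 6.85. It rose by 0.44 ± 0.13 in MHCIIhi macrophages (adjusted p = 0.0219), 0.58 ± 0.13 in MHCIIlow macrophages (adjusted p = 0.00301) and 0.57 ± 0.13 in monocytes (adjusted p = 0.0085), and in neutrophils it fell by 0.37 ± 0.13 (adjusted p = 0.0353). The call held without any one library in MHCIIlow macrophages and monocytes, in 2 of 6 cases in MHCIIhi macrophages and in 3 of 6 in neutrophils. With libraries centred on their median it was lost in MHCIIhi macrophages and in neutrophils, where 6 of 10 other settings called it. The difference of the tumour effect between neutrophils and monocytes was -0.95 ± 0.19 (adjusted p = 0.00342) and held without any one of the 12 libraries.

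**Figure D4:**
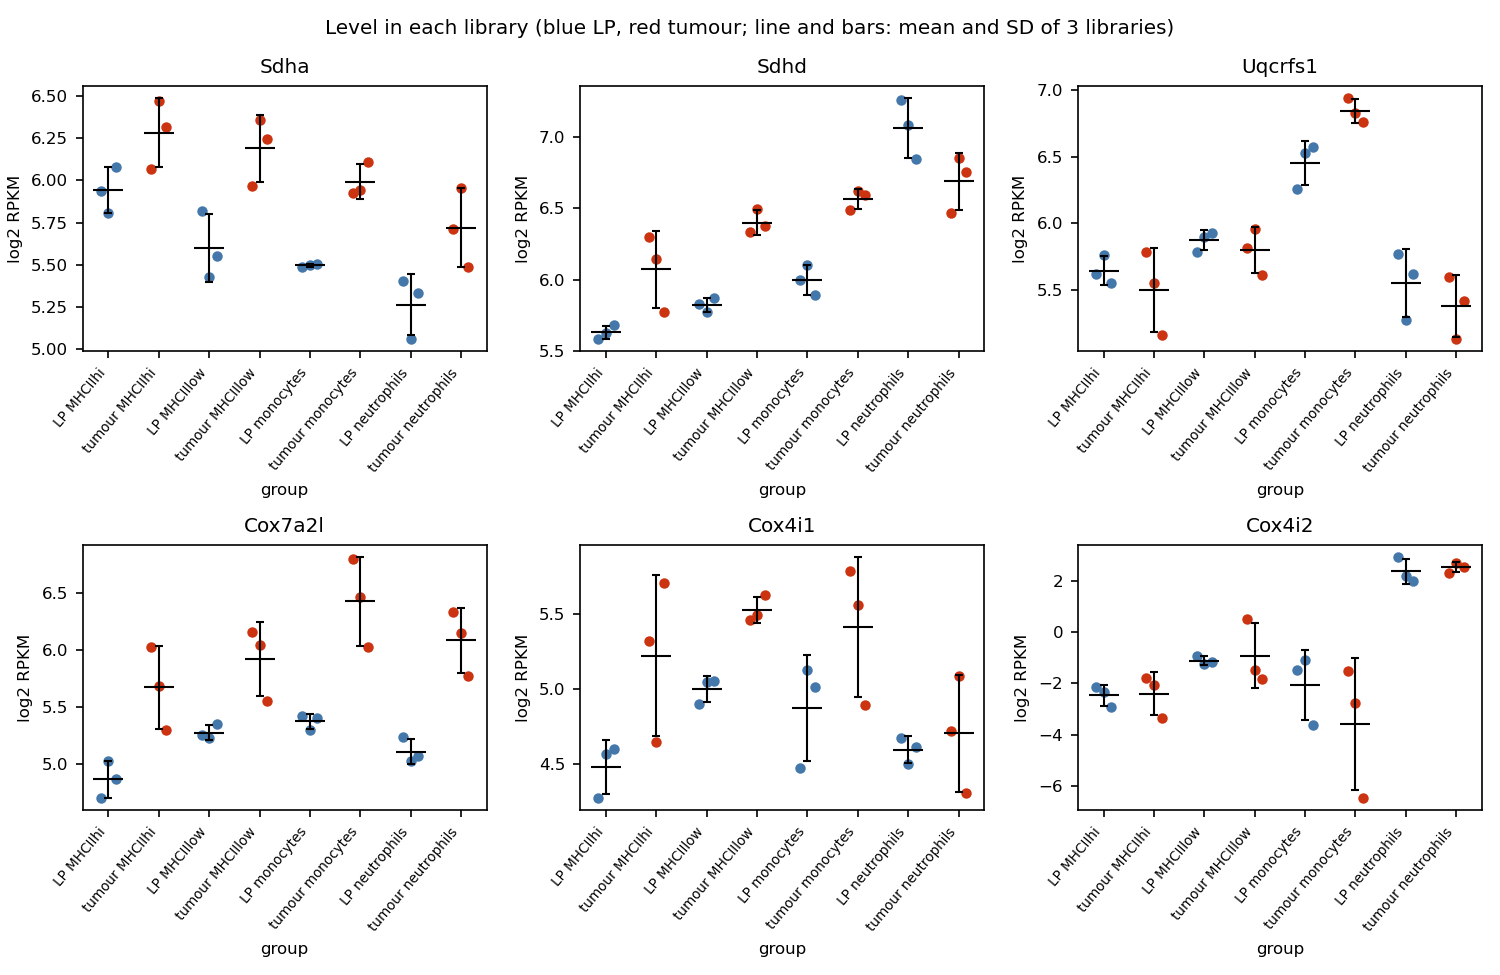
Log2 RPKM of Sdha, Sdhd, Uqcrfs1, Cox7a2l, Cox4i1 and Cox4i2 in each of the 24 libraries (points) by group, with the mean and SD of 3 libraries. Cox7a2l is higher in the tumour group of every population, Sdhd is highest in LP neutrophils at a mean of 7.06, and Cox4i2 stands out in both neutrophil groups.

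Within macrophages, most members had an estimate above 0 for MHCIIlow minus MHCIIhi, and none passed the test on the deposited values. In LP, 72 of 79 members were above 0, with a median of 0.40 against -0.03 for all genes. By length, the median of other protein-coding genes went from 0.35 up to 700 bases to -0.09 above 2500 bases, and that of members from 0.49 to 0.22. By limma, 0 were called in either direction, against 2.13% of all genes called higher and 5.57% called lower, and 9 were higher and 1 lower at an unadjusted p below 0.05. In tumours, 64 members were above 0, with a median of 0.30 against 0.00, and 0 were called, against 0.567% of all genes in each direction. There, 9 were higher and 0 lower at an unadjusted p below 0.05. Voom called 0 in either tissue, whereas arrayWeights called 6 members in LP and 2 in tumours, and library sizes as summed reads 9 and 2. The member closest to the threshold in LP was Cox5b, a zinc-binding subunit of complex IV, which measured 1.5, 1.21 and 2.29 in MHCIIhi and 2.54, 2.51 and 2.55 in MHCIIlow macrophages, a change of 0.87 (adjusted p = 0.0802). In tumours it was Ndufa10, an accessory subunit of complex I, with 4.33, 4.25 and 3.67 against 4.36, 5.07 and 4.82, a change of 0.67 (adjusted p = 0.124). In both cases the groups did not overlap. Without LP MHCIIhi library V, 1 member was called in LP, and without tumour MHCIIlow library I, 1 in tumours.

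The comparisons between populations use the same libraries as those between tissues. Compared with monocytes of the same tissue, macrophages (the mean of both subsets) had lower Uqcrfs1, a gene of complex III, in both tissues. In LP, 0 of 79 members were called higher (against 12.5% of all genes tested) and 5 lower (6.33%, against 17.0%), with a median of -0.11 against -0.02. At an unadjusted p below 0.05, 2 were higher and 13 lower, and voom called 1 higher and 7 lower, against 2355 and 2759 of all 12878 genes. With quantile normalization 4 were higher and 2 lower, with summed reads 2 and 2, with arrayWeights 2 and 10, with only the libraries compared 2 and 8, and with the donor as a fixed block 2 were higher. In tumours, 7 were called higher (8.86%, against 16.8%) and 5 lower (6.33%, against 21.4%), with a median of 0.05. The 7 include 4 genes, named below, that passed the filter on low levels only through macrophages and so had to be higher there. With the donor as a fixed block 3 were higher in place of 7, with summed reads 20 and with quantile normalization 11, and 1 was lower with either of these scalings. Uqcrfs1, the Rieske iron-sulphur protein (chr13:30540308-30545362, minus strand), measured 6.26, 6.52 and 6.57 in LP monocytes, against 5.62, 5.76 and 5.55 in MHCIIhi and 5.79, 5.90 and 5.93 in MHCIIlow macrophages. In tumours it measured 6.94, 6.82 and 6.76 in monocytes, against 5.78, 5.56 and 5.16 in MHCIIhi and 5.82, 5.96 and 5.62 in MHCIIlow macrophages. Every monocyte library lay above every macrophage library of its tissue. Uqcrfs1 fell by 0.69 ± 0.14 in LP (adjusted p = 0.000701) and by 1.19 ± 0.14 in tumours (adjusted p = 7.81e-07), and both calls held without any one of the 9 libraries and in all 11 other settings. Uqcrc1 and Uqcrc2, the core proteins, fell by 0.32 (adjusted p = 0.0484) and 0.38 (adjusted p = 0.0256) in LP and by 0.36 (adjusted p = 0.0224) and 0.33 (adjusted p = 0.0414) in tumours. Both calls were lost in each tissue with quantile normalization and with library sizes as summed reads, and in tumours the change turned to 0.016 for Uqcrc1 with the former and to 0.0076 for Uqcrc2 with the latter. With the donor as a fixed block their tumour calls were lost as well (adjusted p = 0.0547 and 0.089). Uqcrfs1, Uqcrc1 and Uqcrc2 were shared by both lists of 5, which is 60.0% of each.

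The other members lower in macrophages were Atp5a1 and Ndufa1 in LP and Sdhd and Cox7a2l in tumours. Atp5a1 fell by 0.42 ± 0.10 (adjusted p = 0.00275), and Cox7a2l by 0.63 ± 0.17 (adjusted p = 0.00668), with overlapping libraries. With quantile normalization the calls of Atp5a1, Ndufa1 and Cox7a2l were lost, and with summed reads those of Ndufa1 and Cox7a2l. The change of Sdhd turned to 0.012 with summed reads and 0.069 with quantile normalization, and was not called with the donor as a fixed block (adjusted p = 0.275). The members higher in tumour macrophages were Atp5s, Ndufa5, Ndufa12, Ndufc2, Ndufab1, Ndufa13 and Ndufs8. Of these, Atp5s, Ndufa5, Ndufa12 and Ndufab1 passed the filter on low levels only through macrophages, so their being higher there is a description. With the donor as a fixed block the calls of Ndufa13, Ndufab1, Ndufc2 and Ndufs8 were lost (adjusted p = 0.228, 0.177, 0.0538 and 0.0541). Ndufa12, an accessory subunit of complex I, measured -0.03, -0.14 and -1.38 in tumour monocytes, against 1.5, 0.58 and 1.41 in MHCIIhi and 1.84, 1.16 and 2.10 in MHCIIlow macrophages, a mean difference of 1.95. Atp5s, a coupling factor of ATP synthase, had 0, 37 and 2 reads in tumour monocytes, so that 1 library sets its level. In LP the count of lower members was 3 without MHCIIlow library III and 2 without monocyte library IV or V. In tumours the count of higher members was 3 without MHCIIhi library VII, 4 without MHCIIlow library I or VII, 3 without monocyte library II and 2 without monocyte library V. The count of lower members there was 2 without monocyte library I and 3 without II or V.

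Many members were lower in neutrophils than in monocytes of the same tissue. In LP, 32 of 79 members were lower (40.5%, against 30.4% of all genes tested) and 7 higher (8.86%, against 24.1%). In tumours, 42 were lower (53.2%, against 34.9%) and 3 higher (3.8%, against 23.3%). Both counts of higher members include Cox4i2, which passed the filter on low levels only through neutrophils. The counts of lower members hold genes that lay below a mean RPKM of 1 in both neutrophil groups and passed only through other groups. Among them are Ndufab1 and Atp5g1 in both tissues, with lowest means of -4.09 and -2.49 log2 RPKM. Ndufa11, Ndufb5 and Ndufc2 in both tissues, Ndufa5 in LP and Atp5g2 and Ndufc1 in tumours belong to them as well. Their being lower is a description. The median over members was -0.63 in LP against -0.24 for all genes, and -0.90 in tumours against -0.36. The lower members in LP were 16 of 36 in complex I, 0 of 4 in complex II, 6 of 9 in complex III, 4 of 13 in complex IV and 6 of 17 in complex V, and in tumours 19, 1, 7, 5 and 10. Of the lower members, 29 were called in both tissues, 90.6% of the LP list and 69.0% of the tumour list, and of the higher ones 3, Cox4i2 among them, 42.9% of the first and all of the second. The overlap of both tissues over all genes tested was not counted, so these shares are a description. With library sizes as summed reads, which move all genes of a library alike, the median over all genes was -1.07 in LP and -1.49 in tumours, and 58 and 72 members were called lower. The distance between the medians of members and of all genes was -0.39 and -0.54, and -0.43 and -0.67 with quantile normalization. By length of the gene the members were not always apart from other genes. At 700 to 1000 bases the medians in LP were -0.41 for members and -0.38 for other protein-coding genes, and at 1000 to 1500 bases those in tumours were -0.78 and -0.80. Above 2500 bases they were -1.10 and -0.34 in LP and -1.13 and -0.41 in tumours.

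Among members with many reads, Atp5a1 fell most firmly. It measured 7.40, 7.34 and 7.34 in LP monocytes and 5.83, 5.76 and 5.67 in LP neutrophils, and 7.44, 7.24 and 7.43 against 5.67, 5.63 and 5.64 in tumours. It fell by 1.61 ± 0.11 in LP (adjusted p = 6.49e-10) and by 1.72 ± 0.11 in tumours (adjusted p = 1.83e-10). Uqcrc1 measured 5.99, 6.16 and 6.10 in LP monocytes against 4.44, 4.07 and 4.19 in neutrophils, and 6.35, 6.06 and 6.50 against 4.81, 4.58 and 4.63 in tumours. It fell by 1.85 ± 0.14 in LP (adjusted p = 1.31e-09) and by 1.63 ± 0.14 in tumours (adjusted p = 5.68e-09). Both genes were separated in both tissues by a wide margin. Cyc1 fell by 1.73 in LP and 1.42 in tumours (adjusted p = 1.18e-06 and 1.11e-05), and the NADH-binding subunit gene Ndufv1 by 1.24 and 1.44 (adjusted p = 5.1e-06 and 6.62e-07). Ndufa4, which measured 4.02, 3.78 and 4.36 in LP monocytes and 2.52, 1.98 and 1.85 in LP neutrophils, fell by 1.94 ± 0.32 (adjusted p = 3.55e-05), and in tumours by 1.46 ± 0.32 (adjusted p = 0.00059). In tumours Cox7b, a small subunit of complex IV, fell by 1.94 ± 0.38 (adjusted p = 0.000228), and Uqcrb, the ubiquinone-binding subunit of complex III, by 1.84 ± 0.40 (adjusted p = 0.000529). Uqcrb shares 25.0% of its stretches with other genes. Ndufc2 of the membrane arm of complex I had 120, 104 and 78 reads in tumour monocytes and 2, 6 and 1 in tumour neutrophils, a ratio of 11.3 with a counting interval of 5.86 to 24.9. Ndufa5 had 24, 28 and 40 reads in LP monocytes and 1, 0 and 0 in LP neutrophils, a ratio of 51.2 with an interval of 8.97 to 2045. Ndufc2 and Ndufa5 passed the filter on low levels only through groups other than neutrophils, so their values are a description with no test.

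The c-ring genes were all low in neutrophils. Atp5g3, the highest of them in every group, measured 1.70, 2.12 and 2.11 in LP monocytes and 0.73, -1.85 and -0.15 in LP neutrophils, and 2.3, 2.18 and 2.35 against 0.88, -0.82 and 0.40 in tumours. It fell by 2.40 ± 0.46 in LP (adjusted p = 0.0002) and by 2.12 ± 0.46 in tumours (adjusted p = 0.000577). Atp5g1 had 166, 165 and 162 reads in LP monocytes and 9, 8 and 61 in LP neutrophils, a ratio of 3.52 with a counting interval of 2.77 to 4.53. Of the neutrophil reads, 61 came from library V, so that 1 library sets this ratio. The mean of its log2 values fell by 2.46 in LP and by 2.18 in tumours. Atp5g1 passed the filter on low levels only through groups other than neutrophils, so these values are a description with no test. Atp5g2 had 48, 61 and 7 reads in tumour monocytes and 2, 0 and 0 in tumour neutrophils, a ratio of 19.5 with an interval of 5.28 to 163. It too passed the filter only through groups other than neutrophils, so this ratio is a description with no test. In macrophages the tumour and LP libraries of Atp5g3 overlapped, with 2.46, 2.29 and 2.21 against 2.45, 2.29 and 2.93 in the MHCIIhi subset.

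A few members were higher in neutrophils. Cox4i2, the alternative isoform of subunit 4 that is known from lung and from oxygen sensing (chr2:152754173-152765037, plus strand), had 143, 48 and 67 reads in LP neutrophils and 49, 42 and 35 in tumour neutrophils. Monocytes had 7, 16 and 2 reads in LP and 8, 3 and 0 in tumours, and no macrophage library exceeded 30. Neutrophils were 18.5 times LP monocytes (counting interval 12.3 to 29.2) and 34.1 times tumour monocytes (18.4 to 70.0). The mean difference was 4.42 in LP and 6.11 in tumours. Cox4i2 passed the filter on low levels only through the neutrophil groups, so these values are a description with no test. Cox4i1, the common isoform, measured 4.47, 5.13 and 5.02 in LP monocytes and 4.67, 4.50 and 4.61 in LP neutrophils, a change of -0.28 (adjusted p = 0.362), and fell by 0.71 in tumours (adjusted p = 0.0196), with overlapping libraries. Cox4i2 remained below Cox4i1 by 2.23 ± 0.45 log2 RPKM in LP and 2.18 ± 0.36 in tumour neutrophils, whereas the mean distance was between 6.11 and 9.0 in the other groups.

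Cox8a and Uqcrq were called higher in neutrophils in both tissues. Cox8a measured 4.07, 4.48 and 4.36 in LP monocytes and 5.46, 5.33 and 5.60 in LP neutrophils, and 4.81, 4.69 and 4.43 against 5.42, 5.55 and 5.00 in tumours. It rose by 1.16 ± 0.28 (adjusted p = 0.00141) and 0.68 ± 0.28 (adjusted p = 0.0396). Its calls were lost in both tissues with quantile normalization and with library sizes as summed reads, where its change in tumours was -0.45, and its tumour call with the donor as a fixed block (adjusted p = 0.0606). Uqcrq, a small subunit of complex III that binds ubiquinone, measured 1.71, 1.98 and 2.59 against 2.85, 3.01 and 2.73 in LP and 2.29, 2.37 and 2.39 against 3.08, 3.62 and 3.21 in tumours. It rose by 0.77 ± 0.27 (adjusted p = 0.0218) and 0.95 ± 0.27 (adjusted p = 0.00547), but with library sizes as summed reads its change was -0.05 and -0.18, and the LP call was lost with the donor as a fixed block (adjusted p = 0.0839). Neither gene overlapped between the cell types. Sdhd rose in LP neutrophils by 1.07 ± 0.13 (adjusted p = 1.16e-06), and in tumours, where monocytes were higher and neutrophils lower than in LP, the change was 0.12 (adjusted p = 0.442), while Sdhd was called lower there with quantile normalization and with summed reads and higher with libraries centred on their median. Of the other complex II genes, Sdha changed by -0.23 (adjusted p = 0.183), Sdhb by -0.07 (adjusted p = 0.816) and Sdhc by -0.60 (adjusted p = 0.0778) in LP, and Sdhc fell by 1.10 ± 0.28 in tumours (adjusted p = 0.0024). Atp5l, Ndufb9 and Ndufa7 rose in LP neutrophils by 1.12, 1.09 and 1.05 (adjusted p = 0.00371, 0.00267 and 0.0134). With summed reads the LP calls of Sdhd, Atp5l, Ndufb9 and Ndufa7 were lost, and with quantile normalization that of Ndufb9.

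**Figure D5:**
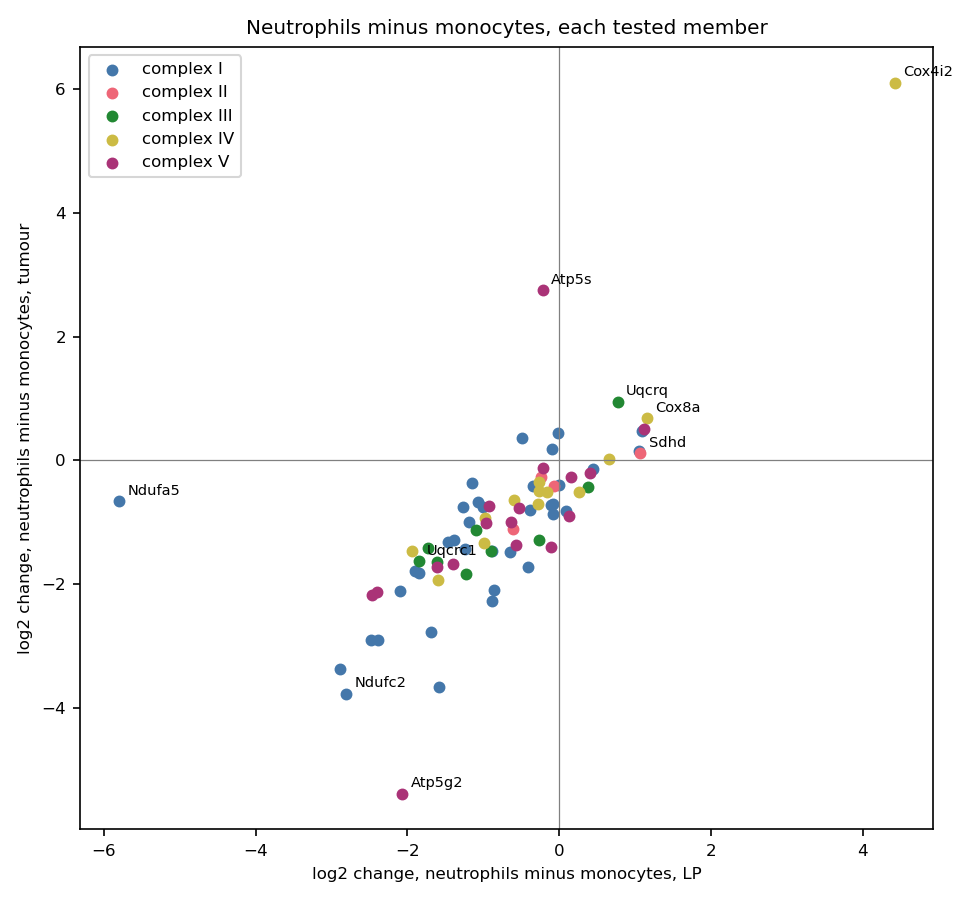
Change from monocytes to neutrophils (log2) of each member tested, LP on the x axis and tumour on the y axis, coloured by complex. Most members lie below 0 on both axes, with medians of -0.63 in LP and -0.90 in tumours, and Cox4i2 lies apart at 4.42 and 6.11. The axes share no library.

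The filter on low levels left out 2 isoform genes. Cox6b2, known from testis, had 15, 21 and 31 reads in tumour MHCIIhi macrophages against 0, 4 and 0 in LP, 11, 6 and 2 in LP and 0, 21 and 12 in tumour MHCIIlow macrophages, and 0 in all 6 neutrophil libraries. Its common form Cox6b1 measured 3.99, 4.08 and 4.04 in LP and 4.44, 3.98 and 5.81 in tumour MHCIIhi macrophages, with overlap. Ndufa4l2, a hypoxia-induced relative of Ndufa4, had 4, 2 and 84 reads in LP monocytes and at most 4 in any other library. Its only sizeable level thus came from 1 library. Cox6a1, whose relative Cox6a2 had no row, was not called between tumour and LP in any population.

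Differences of the tumour effect between populations were mostly within the error. Between MHCIIlow and MHCIIhi macrophages, 0 members were called by limma (against 1.13% of all genes higher and 0.326% lower), with 1 higher and 2 lower at an unadjusted p below 0.05 and 0 by voom. Between macrophages and monocytes 0 were called (against 3.55% and 5.64%), with 5 higher and 1 lower at an unadjusted p below 0.05 and 1 by voom. With the donor as a random block it was 1. Without tumour MHCIIhi library V this count was 2, and without tumour monocyte library II it was 1. Between neutrophils and monocytes 1 was higher (against 3.61%) and 1 lower (against 5.5%), Ndufa5 and Sdhd, and without tumour neutrophil library I the count was 4.

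The genes encoded in mitochondrial DNA supply the remaining subunits. In tumour MHCIIlow macrophages 0 of 12 were above 0, with a median of -0.97, and 6 fell (against 11.8% of all genes tested), namely mt-Nd1, mt-Nd2, mt-Nd4, mt-Nd5, mt-Nd6 and mt-Cytb. Voom called 6, and 5 to 7 fell without any one library of these groups. The subunit gene mt-Nd5 measured 9.58, 10.27 and 10.51 in LP and 8.88, 8.71 and 8.97 in tumour MHCIIlow macrophages, and fell by 1.27 ± 0.19 (adjusted p = 4.64e-05), without overlap. In MHCIIhi macrophages it measured 8.47, 8.65 and 8.53 against 8.84, 8.67 and 8.47, and 0 of 12 mitochondrial genes were called in either direction by limma, with a median of 0.11, 1 higher and 0 lower at an unadjusted p below 0.05 and 1 called higher by voom. In monocytes 0 were called by either tool, with 1 higher at an unadjusted p below 0.05. In neutrophils 5 rose (against 13.1% of all genes) and 1, mt-Co2, fell (against 19.0%), from 4, 2 and 6 reads in LP to 0 in each tumour library, and voom called 2 higher and 0 lower. Stretches shared with other genes were examined for the members only, not for these mitochondrial genes. In LP, 7 of 12 were higher in MHCIIlow than in MHCIIhi macrophages (against 2.13% of all genes), with a median of 1.48. The tumour effects of mt-Nd4 and mt-Nd5 differed between the subsets by -1.20 (adjusted p = 0.0378) and -1.38 (adjusted p = 0.0122). In neutrophils 9 of 12 were lower than in monocytes in each tissue, against 30.4% of all genes in LP and 34.9% in tumours.

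The citric acid cycle feeds complexes I and II. Of 13 of its enzymes, 3 rose in tumour MHCIIhi macrophages, 4 in MHCIIlow macrophages, 0 in monocytes and 8 in neutrophils by limma, with medians of 0.34, 0.43, 0.28 and 0.54. Over all genes tested the shares that rose were 8.01%, 11.5%, 4.86% and 13.1% in this order, and the shares that fell 11.5%, 11.8%, 4.43% and 19.0%, which also hold for the lists that follow. In monocytes 4 were higher at an unadjusted p below 0.05, and voom called 1. Cs, citrate synthase, rose by 0.81 in MHCIIlow macrophages (adjusted p = 4.34e-05) and 0.86 in neutrophils (adjusted p = 2e-05). In neutrophils 11 of 13 were lower than in monocytes in LP (against 30.4% of all genes) and 9 in tumours (against 34.9%). Of 74 mitochondrial ribosomal protein genes, 0 rose and 2 fell in tumour MHCIIhi macrophages by limma (3 and 3 at an unadjusted p below 0.05, 4 and 4 by voom), 2 rose in MHCIIlow macrophages, 3 rose and 1 fell in monocytes, and 1 rose and 17 fell in neutrophils. They were lower in neutrophils than in monocytes in 35 of 74 cases in LP and 56 in tumours. Genes with cytosolic ribosomal protein names numbered 92, which include a few ribosomal protein kinases. Of these, 22 rose in tumour MHCIIhi macrophages with a median of 0.67, close to that of the members, 9 in MHCIIlow macrophages and 3 in monocytes. In neutrophils against monocytes, 53 of the 92 were lower and 3 higher in LP at an unadjusted p below 0.05 by limma. In tumours 68 were lower and 3 higher. Of the 79 members, 37 were lower and 8 higher in LP by the same measure, and 47 and 4 in tumours.

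Assembly factors help to build the complexes without being part of them. Of 14 for complex I, 1 rose in MHCIIhi macrophages, 1 in monocytes and 1 in neutrophils, where 2 fell. In MHCIIlow macrophages limma called 0, with 1 higher at an unadjusted p below 0.05 and 1 by voom. Of 17 for complex IV, 2 rose in MHCIIhi macrophages, Surf1 and Cox14, and 1 each in the other populations, with 4 lower in neutrophils (against 19.0% of all genes). Of 5 for complex III, Uqcc1 fell in neutrophils, and limma and voom called 0 in macrophages and monocytes, where 0 passed an unadjusted p of 0.05. Of 4 for complexes II and V, Sdhaf2, which attaches the flavin to Sdha, rose by 0.62 in MHCIIlow macrophages (adjusted p = 0.00985), and it fell with Tmem70 in neutrophils. Of 5 genes of cytochrome c and its modulators, limma called 0 between tumour and LP. At an unadjusted p below 0.05, 1 was higher and 1 lower in MHCIIhi macrophages and 1 was higher in MHCIIlow macrophages and 1 in neutrophils, and voom called 1 lower and 1 higher in the MHCIIhi and MHCIIlow subsets. Of 11 nuclear regulators of mitochondrial genes, Esrra, a nuclear receptor that acts on respiratory genes, rose in tumour MHCIIhi macrophages by 1.88 (adjusted p = 0.00584) and in MHCIIlow macrophages by 1.71 (adjusted p = 0.00944). Its values were 0.55, -1.66 and -0.20 against 1.88, 1.69 and 0.76 in the MHCIIhi and 0.26, 0.48 and 0.16 against 1.97, 2.24 and 1.81 in the MHCIIlow subset, without overlap. Gabpb1, the partner of the ETS factor Gabpa, rose in tumour monocytes by 0.97 (adjusted p = 0.00712) and in tumour neutrophils by 0.98 (adjusted p = 0.00183). Of the 11 regulators, 2 were higher and 0 lower in tumour monocytes at an unadjusted p below 0.05 by limma. In tumour neutrophils 1 was higher and 4 were lower. Tfam, which packs and transcribes mitochondrial DNA, fell in neutrophils against monocytes by 2.59 in LP (adjusted p = 0.00858) and 2.29 in tumours (adjusted p = 0.0166). In that comparison 1 of the 11 regulators was higher and 2 were lower in LP at an unadjusted p below 0.05 by limma. In tumours 2 were higher and 4 lower, so the regulators did not move as a list.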

How the data were processed

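RNA of 8 groups of sorted colon myeloid cells, with 3 libraries each, had been amplified from 2 ng of RNA with a modified SMARTSeq v2 protocol, which does not keep strand, and sequenced as paired reads of 51 bases. The submitters' processing notes name STAR 2.3, featureCounts 1.5 and edgeR and the build GRCm38/mm10. The authors kept only genes averaging at least 10 reads in some population, tested populations with limma and voom, and deposited log2 RPKM for 17301 genes in 24 columns, all used. The prior count was 0.25 reads, read from the values, of which 100% (415224 values) gave whole reads within 0.01. These reads served for depth, counting intervals and voom.

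The deposited log2 values were fitted in R 4.3.3 by limma 3.58.1, with 8 group means, all 24 libraries, an eBayes trend and no covariate, over the 12878 genes whose mean RPKM reached 1 in some group. P values were adjusted by Benjamini-Hochberg over all of these genes within each of 13 comparisons, with a threshold of 0.05. The labels name the same donor for libraries of several populations of a tissue, although each library is a pool. P values rest on the spread of libraries within groups, pooled over all 8 groups and 24 libraries, not on the 2 groups compared alone. Over 29 pairs with the same donor and tissue, deviations from group means correlated with r from -0.066 to 0.255 (median 0.0169), 5 pairs above 0.1, and duplicateCorrelation gave 0.0476. The fit had no donor block, and blocked values stand beside the results they change. In simulated data for tumour against LP MHCIIhi macrophages over 12878 genes, the test recovered 20% of genes changed by 1 on the log2 scale and 55% of those changed by 2, and 3.85% of its calls were false. The members and lists were chosen with earlier results of these data known. Members were named as isoform families, as Sdh genes, or as the largest called rise and fall of each complex in each tumour and neutrophil comparison. Other named members were chosen after their values were seen. Stretches of 51 bases were compared between GENCODE M21 transcripts: 7 members shared over 20% of theirs with other genes, and 32 shared none. Promoters came from RefSeq (GRCm38.p6).

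Alternatives were log2(RPKM + 1), other filters and scalings, arrayWeights, only the libraries compared, donor blocks, voom, leaving out members with shared sequence and leaving out each library in turn. Library sizes as summed reads were added after the sizes in neutrophils were seen. Python 3.11.15 with pandas 2.3.3, numpy 2.4.6 and matplotlib 3.10.9 made tables and figures. Proteins were not used here.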

Additional observations from a re-analysis of the deposited data

Results flagged for a closer look

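The tumour effect differed between neutrophils and monocytes for 2 members by limma's test of the difference. For Ndufa5 it was 5.14 higher in neutrophils on the log2 scale (adjusted p = 0.00329), where LP neutrophils held 1, 0 and 0 reads and tumour neutrophils 4, 4 and 1, against 24, 28 and 40 and 17, 18 and 6 in monocytes, so that the size of the difference rests on single reads. For Sdhd it was -0.95 (adjusted p = 0.00342), with at least 6.47 log2 RPKM in every neutrophil library.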

How the results depend on the processing

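The counts of called members that moved by more than 1.5 times were as follows, each against the count as reported. In tumour MHCIIhi macrophages 19 rose, 12 with libraries centred on their median, 3 with only the 6 libraries compared, and 6 to 27 without single libraries. In MHCIIlow macrophages 13 rose, 20 with arrayWeights or quantile normalization, and 7 to 13 without single libraries, and 0 fell, 1 with arrayWeights, median centring, summed reads, log2(RPKM + 1), a minimum mean RPKM of 5, only the libraries compared, quantile normalization, a random donor block or voom, and 0 to 1 without single libraries. In monocytes 5 rose, 8 centred on the median, 3 with summed reads, and 2 to 5 without single libraries, and 0 fell, 0 to 1 without single libraries. In neutrophils 10 rose, 4 with arrayWeights, 17 centred on the median, 2 with summed reads or only the libraries compared, 3 with voom, and 5 to 11 without single libraries, and 2 fell, 16 with summed reads, 0 with voom, 1 under arrayWeights, median centring, log2(RPKM + 1), a minimum mean RPKM of 5, only the libraries compared or quantile normalization, and 1 to 3 without single libraries. Between MHCIIlow and MHCIIhi macrophages 0 were called, in LP 6 with arrayWeights, 9 with summed reads, 1 with quantile normalization and 0 to 1 without single libraries, and in tumours 2 with arrayWeights, 2 with summed reads and 0 to 1 without single libraries. Between macrophages and monocytes in LP 0 rose, 2 with arrayWeights, summed reads, only the libraries compared or a fixed donor block, 4 with quantile normalization, 1 with voom and 0 to 1 without single libraries, and 5 fell, 10 with arrayWeights, 2 with summed reads or quantile normalization, 8 with only the libraries compared, and 2 to 7 without single libraries. In tumours 7 rose, 3 centred on the median or with a minimum mean RPKM of 5, 20 with summed reads, 11 with quantile normalization, and 2 to 8 without single libraries, and 5 fell, 8 with arrayWeights or voom, 9 centred on the median, 1 with summed reads or quantile normalization, 2 with only the libraries compared, and 2 to 5 without single libraries. Between neutrophils and monocytes in LP 7 rose and 32 fell, 1 and 58 with summed reads, 5 to 7 and 26 to 35 without single libraries. In tumours 3 rose and 42 fell, 1 and 72 with summed reads, 8 rose when centred on the median, and 2 to 4 and 37 to 45 did without single libraries. For the tumour effect, 0 members differed between macrophages and monocytes, 1 under arrayWeights, median centring, quantile normalization or voom, 3 with summed reads and 0 to 2 without single libraries, and 2 differed between neutrophils and monocytes, 5 with summed reads, 1 with log2(RPKM + 1) or a minimum mean RPKM of 5, and 2 to 4 without single libraries. Between the macrophage subsets the count was 0 without single libraries. The cause of these shifts was not tested.

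Among all called members between tumour and LP, macrophages and monocytes, and neutrophils and monocytes, changes that reversed were Sdhd at 0.012 with summed reads and 0.069 with quantile normalization, Uqcrc1 at 0.016 with quantile normalization and Uqcrc2 at 0.0076 with summed reads, all tumour macrophages minus monocytes, and with summed reads Uqcrq at -0.055 in LP and -0.18 in tumours and Cox8a at -0.45 in tumours (neutrophils minus monocytes) and Sdha at -0.012 and Uqcrc1 at -0.031 in tumour neutrophils. None was called there, with adjusted p from 0.177 to 0.97. Of the other settings for single members, 1385 kept direction and call and 205 lost the call, and 27 of the summed RPKM values moved by more than 1 SD while 53 did not.

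With the donor as a fixed replicate block, 3 members rose in tumour macrophages against monocytes in place of 7 and 2 rose in LP in place of 0, and with a random block 1 member differed in its tumour effect between macrophages and monocytes in place of 0 and 1 fell in tumour MHCIIlow macrophages in place of 0. Among single called members, the fixed block also ended the call of Ndufc1 between tumour neutrophils and monocytes (adjusted p = 0.0654) beside those named with the results. The median member held 157 reads in the 3 tumour neutrophil libraries together, and the shallowest library, of LP MHCIIlow macrophages, held 12.8 M reads on genes.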
